A study of Felis catus with 15 samples.

Results

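The genes described here are 40 genes of glycolysis and of the response to low oxygen, listed by their Felis catus symbols and placed in 4 roles. There were 4 regulators of the hypoxia-inducible factor (HIF) pathway, 14 HIF targets, 3 glucose and lactate transporters and 19 glycolytic enzymes and their regulators. Of these 40 symbols, 39 matched a gene in the table of 38995 genes, and all 39 passed the filter on low counts. The platelet-type phosphofructokinase PFKP had no match by symbol and was not analysed here. The role groups were therefore complete except for the enzymes, of which 18 of 19 were measured.

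RNA was sequenced from the domestic cat epididymis, a coiled duct where sperm mature, in its middle region, the corpus. The 15 libraries formed 3 groups of 5: fresh corpus tissue, corpus explants (pieces of tissue kept alive in culture), and corpus explants cultured with added extracellular vesicles, small membrane-bound particles that cells release, taken from the caput, which lies upstream of the corpus. No genotype, age or treatment other than culture and vesicles is given in the labels, which code fresh tissue as D0 and both cultures as D3 without saying what the code means. Libraries are named by group and replicate number, such as culture 3, and libraries of the same number are called a pair. Nothing in the labels says that replicates came from separate animals, so the p-values measure only the spread between these samples, which may be technical. The design asks what culture with and without caput vesicles does to the corpus transcriptome.

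Glycolysis splits glucose into pyruvate, and lactate dehydrogenase converts pyruvate and lactate into each other, which lets a cell make ATP without oxygen. HIF1A and EPAS1 encode the oxygen-sensitive subunits of the HIF transcription factors, which prolyl hydroxylases of the EGLN family mark for destruction when oxygen is present. When oxygen falls, HIF accumulates and raises transcription of glucose transporters, glycolytic enzymes, angiogenic factors and its own hydroxylases. The HIF subunits are controlled mainly at the protein level, which RNA counts do not measure. The epididymal lumen is a low-oxygen environment, and many of the same genes also respond to growth factors and stress.

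Total counts ran from 17751507 to 24841100 in fresh tissue, from 19308190 to 25454399 in culture and from 17308832 to 27420218 in culture with vesicles. Culture 3 stood apart: the 13 protein genes of the mitochondrial genome took 0.1794% of its counts, against 6.23% to 7.481% in the other 4 culture libraries, 6.399% to 7.259% in culture with vesicles and 8.686% to 11.37% in fresh tissue. The counts called and the median over all members, and the members given in full, are therefore also given without culture 3. Counts and medians by role and counts of libraries that do not overlap include it. No member's log2 fold change over fresh tissue changed sign without it. Cell type markers also moved with culture, where 28.7% of all genes tested were called higher and 25.6% lower. Summed over the list, the 4 basal cell markers measured lay at 322 to 575 CPM (counts scaled to the size of each library) in fresh tissue and 1780 to 6270 in culture, with 4 of 4 called higher. Fibroblast markers had 3 of 6 called higher, dividing cell markers 4 of 6, and neutrophil markers 4 of the 4 tested. Endothelial markers had 3 of 6 called higher, smooth muscle markers 2 of 6 and macrophage markers 2 of 6, with 0 lower in each. Of 5 clear cell markers 1 was called higher and 2 lower, and of 5 lymphocyte markers tested 0 were called higher and 1 lower. The neutrophil markers CSF3R and MPO, at no more than 0.462 and 0.503 CPM in any library, were not tested. ELANE, 1 of the 4 tested, was at no more than 1.04 CPM in any library. Nearly all of the summed level of this list was LTF, at 1330 to 2860 CPM in fresh tissue and 4454 to 10935 in culture. CXCR2 was at 0.281 to 1.19 CPM in fresh tissue and 5.09 to 5.69 in culture, and S100A12 at 0 to 0.562 and 7.12 to 96.6. Of the principal cell markers, 4 of the 6 tested were called lower and 2 higher. Their sum was 17700 to 21600 CPM in fresh tissue and 1240 to 4030 in culture, most of it from CRISP1 and NPC2. CRISP1 and NPC2 were at 8873 and 8520 CPM in fresh 1 and at 2069 and 522 in culture 1. The 2 higher were CFTR and DEFB1, and DEFB1 was at 0 to 0.321 CPM in fresh tissue and 224 to 707 in culture. The mean log2 CPM of the list overlapped, at 6.87 to 7.38 in fresh tissue and 6.34 to 7.66 in culture. SLC9A3 was at 0 in culture and at 0 to 0.155 CPM in fresh tissue, and was not tested. Of the sperm and late germ cell markers, 5 of the 5 tested were called lower; their sum was 11.1 to 50.3 CPM in fresh tissue and 2.64 to 5.91 in culture, where AKAP4 and CAPZA3 were at 0. Without culture 3, basal cell markers had 4 of 4 called higher, fibroblast markers 5 of 6, dividing cell markers 5 of 6 and neutrophil markers 3 of 4. Endothelial markers then had 2 of 6 called higher, and clear cell markers 1 higher and 0 lower. The counts of principal cell, sperm, smooth muscle, macrophage and lymphocyte markers did not change. In bulk tissue, a change in the share of a cell type and a change in RNA per cell cannot be told apart. The part of these marker shifts in the results below was not tested.

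In cultured explants most of the glycolysis and hypoxia genes were higher than in fresh tissue. Of the 39 members, 34 were called higher, 1 was called lower and 4 were not called. A gene was called when its adjusted p was under 0.05 by edgeR's quasi-likelihood test with Benjamini-Hochberg adjustment over the 18038 genes tested. Over all of those genes, 28.7% were called higher and 25.6% were called lower. The median log2 fold change was 2.33 over the members and 0.0351 over all genes tested. In 30 of the 39 members every culture library lay above every fresh library, which held for 20.2% of all genes tested. Without culture 3, 33 members were called higher and 1 lower, and their median was 2.04.

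**Figure D1:**
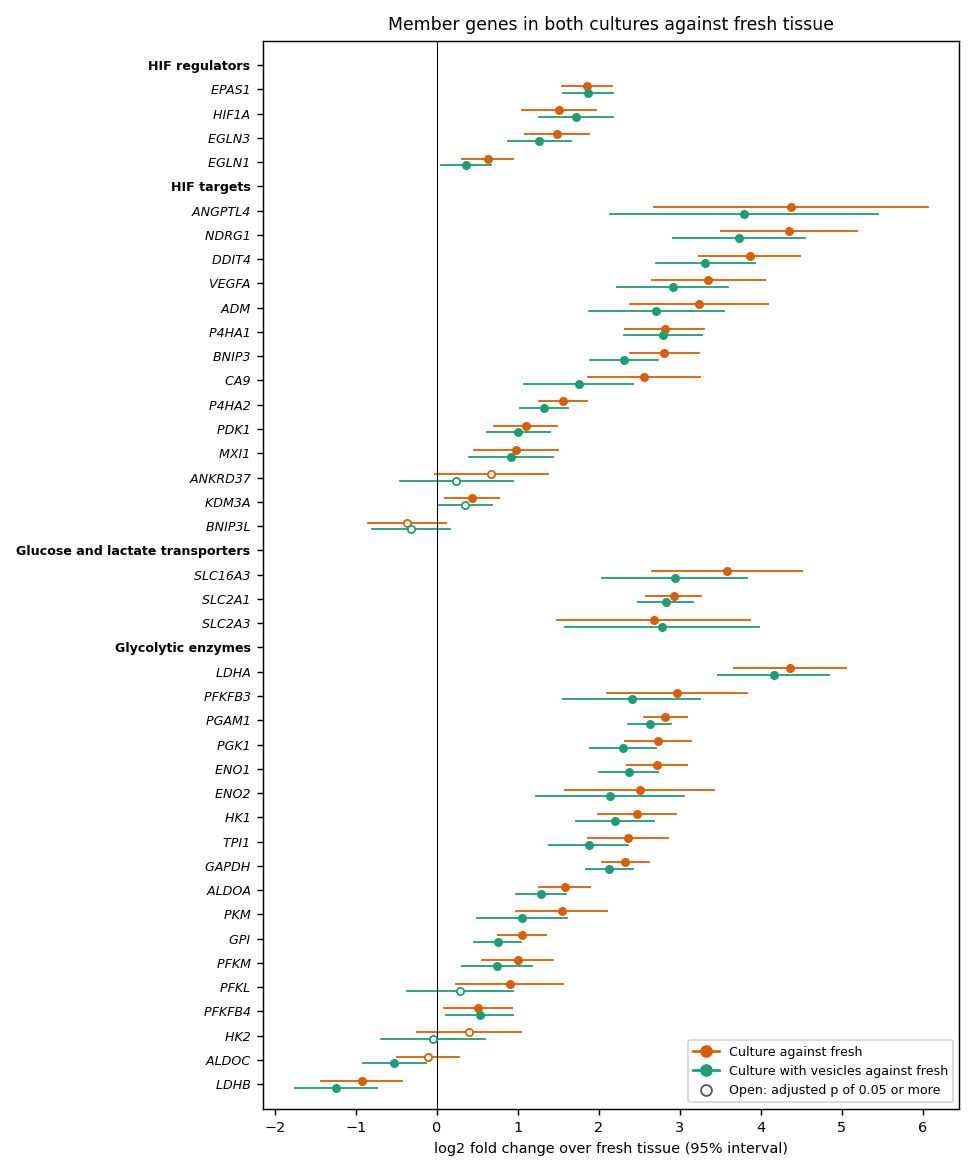
Log2 fold change over fresh tissue (horizontal axis, with 95% intervals) of the 39 members, ordered by role, in culture (orange) and in culture with vesicles (green), 5 libraries in each group. Filled points were called and open points were not; nearly all points lie to the right of 0, and LDHB lies to the left in both cultures.

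All 4 HIF pathway regulators rose in culture, with a median log2 fold change of 1.49, and in each of them every culture library lay above every fresh library. HIF1A (NCBI gene 101083686) was at 203, 217, 239, 265 and 224 CPM in fresh 1 to 5, at 741, 601, 312, 821 and 786 in culture 1 to 5, and at 812, 617, 882, 791 and 681 in culture with vesicles 1 to 5. Culture 3 was the lowest cultured library and the nearest to fresh tissue, while its partner with vesicles was the highest of all. The log2 fold change of HIF1A in culture was 1.51 ± 0.21 (SE; edgeR adjusted p = 3.05e-05), and 1.69 without culture 3.

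EPAS1 (NCBI gene 101085621), which encodes HIF-2 alpha, was at 151, 144, 98.2, 156 and 121 CPM in the fresh libraries, at 482, 377, 519, 561 and 482 in culture, and at 466, 506, 493, 514 and 462 with vesicles. The cultured libraries were all above the fresh ones, and the range with vesicles lay inside that of culture. Its log2 fold change was 1.85 ± 0.15 (SE; edgeR adjusted p = 9.53e-08), and 1.84 without culture 3. Both hydroxylase genes rose as well, EGLN3 by 1.48 ± 0.18 and EGLN1 by 0.63 ± 0.15 (log2 fold change ± SE), and by 1.5 and 0.54 without culture 3.

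Of the 14 HIF targets, 12 rose in culture, none fell, and BNIP3L and ANKRD37 were not called; the median log2 fold change was 2.68. VEGFA (NCBI gene 493845), the main growth factor for blood vessels, was at 62.5, 46.5, 66, 66.4 and 58.2 CPM in fresh 1 to 5, at 495, 442, 1117, 322 and 684 in culture, and at 460, 399, 581, 232 and 579 with vesicles. Its lowest culture library was well above its highest fresh library, and culture 3 was the highest of all 15. The log2 fold change was 3.35 ± 0.33 (SE; edgeR adjusted p = 8.54e-07), and 3.03 without culture 3.

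CA9 (NCBI gene 101092802), a cell-surface carbonic anhydrase that helps cells export acid, was at 6.63, 6.54, 7.57, 9.99 and 8.97 CPM in fresh tissue, at 33.5, 36.6, 99.2, 26 and 38.5 in culture, and at 30.5, 20.8, 34.5, 20.3 and 27.4 with vesicles. Culture 3 was again the highest library by a wide margin, and the groups of fresh and cultured libraries did not overlap. CA9 rose by 2.56 ± 0.33 (log2 fold change ± SE; edgeR adjusted p = 1.05e-05), and by 2.09 without culture 3.

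The 2 targets with the largest rise were ANGPTL4 and NDRG1. ANGPTL4 (NCBI gene 101090747), a secreted inhibitor of lipoprotein lipase, was at 2.28, 1.53, 1.01, 15.6 and 0.464 CPM in fresh 1 to 5, at 93.1, 43.2, 171, 65.1 and 51.4 in culture, and at 78.4, 26, 67.2, 70.2 and 42 with vesicles. Fresh 4 was far above the other fresh libraries but below every cultured one. The log2 fold change was 4.37 ± 0.80 (SE; edgeR adjusted p = 0.000285), 5.99 without fresh 4 and 3.97 without culture 3.

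NDRG1 (NCBI gene 101089078), a gene induced by hypoxia and other stresses, was at 40.2, 42.8, 27, 40.4 and 53.4 CPM in fresh tissue, at 626, 612, 1571, 449 and 892 in culture, and at 543, 386, 883, 263 and 632 with vesicles. Every cultured library lay above every fresh one, and each library with vesicles lay below its culture of the same number. Its log2 fold change in culture was 4.35 ± 0.40 (SE; edgeR adjusted p = 4e-07), and 3.99 without culture 3.

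The other called targets spanned a wide range. The mTORC1 inhibitor DDIT4 rose by 3.86 ± 0.30, the vasodilator peptide gene ADM by 3.24 ± 0.40 and the mitophagy receptor BNIP3 by 2.81 ± 0.20 (log2 fold change ± SE); BNIP3 was at 2.66 without culture 3. Of the collagen prolyl hydroxylase subunits, P4HA1 rose by 2.81 ± 0.23 and P4HA2 by 1.55 ± 0.14. PDK1, the kinase that restrains entry of pyruvate into the citric acid cycle, rose by 1.10 ± 0.18, and the MYC antagonist MXI1 by 0.98 ± 0.24. The smallest called rise was that of the histone demethylase KDM3A, at 0.43 ± 0.16 (edgeR adjusted p = 0.0278). Fresh and culture libraries overlapped in KDM3A and MXI1, and the KDM3A call was lost without fresh 2 (adjusted p = 0.065), without culture 1 (0.0717) or without culture 5 (0.0615), and under upper-quartile scaling (0.0839).

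BNIP3L, the paralog of BNIP3 and also a mitophagy receptor, was at 178, 197, 183, 195 and 195 CPM in fresh tissue, at 159, 173, 55.6, 161 and 185 in culture, and at 149, 141, 172, 139 and 158 with vesicles. Culture 3 was far below every other library, and the fresh and culture ranges overlapped. The log2 fold change was -0.37 ± 0.23 (SE; edgeR adjusted p = 0.183), and -0.15 without culture 3.

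ANKRD37, an ankyrin-repeat gene known as a HIF target, was at 15.2, 9.91, 12.4, 12.9 and 10.8 CPM in fresh tissue, at 18.4, 17.4, 31.2, 10.4 and 20.2 in culture, and at 17.7, 8.21, 22.3, 6.41 and 17.6 with vesicles. Culture 4 lay inside the fresh range while the other 4 cultures lay above it. Its log2 fold change was 0.67 ± 0.33 (SE; edgeR adjusted p = 0.0958), 0.84 without culture 4 (adjusted p = 0.0426) and 0.45 without culture 3 (adjusted p = 0.243).

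All 3 transporter genes rose in culture, with a median log2 fold change of 2.92. SLC2A1 (NCBI gene 100127104), which encodes the glucose transporter GLUT1, was at 46.5, 43.4, 41.4, 47.5 and 40.6 CPM in fresh tissue, at 344, 274, 376, 281 and 389 in culture, and at 364, 226, 373, 272 and 322 with vesicles. The fresh libraries lay close together, far below all cultured ones, and culture 3 was not the highest. SLC2A1 rose by 2.92 ± 0.16 (log2 fold change ± SE; edgeR adjusted p = 6.32e-09), and by 2.89 without culture 3.

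SLC16A3 (NCBI gene 101091669), which encodes the lactate exporter MCT4, was at 5.79, 5.42, 2.16, 2.42 and 10.3 CPM in fresh tissue, at 45.6, 52.2, 116, 33 and 66 in culture, and at 36.6, 44.9, 46.2, 25.6 and 46 with vesicles. The ranges of fresh and cultured libraries did not meet. Its log2 fold change was 3.58 ± 0.43 (SE; edgeR adjusted p = 6.65e-06), and 3.25 without culture 3. SLC2A3, which encodes the high-affinity glucose transporter GLUT3, rose by 2.68 ± 0.56, and by 3.47 without fresh 4, which had 42.8 CPM against 6.54 to 13.4 in the other fresh libraries.

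**Figure D2:**
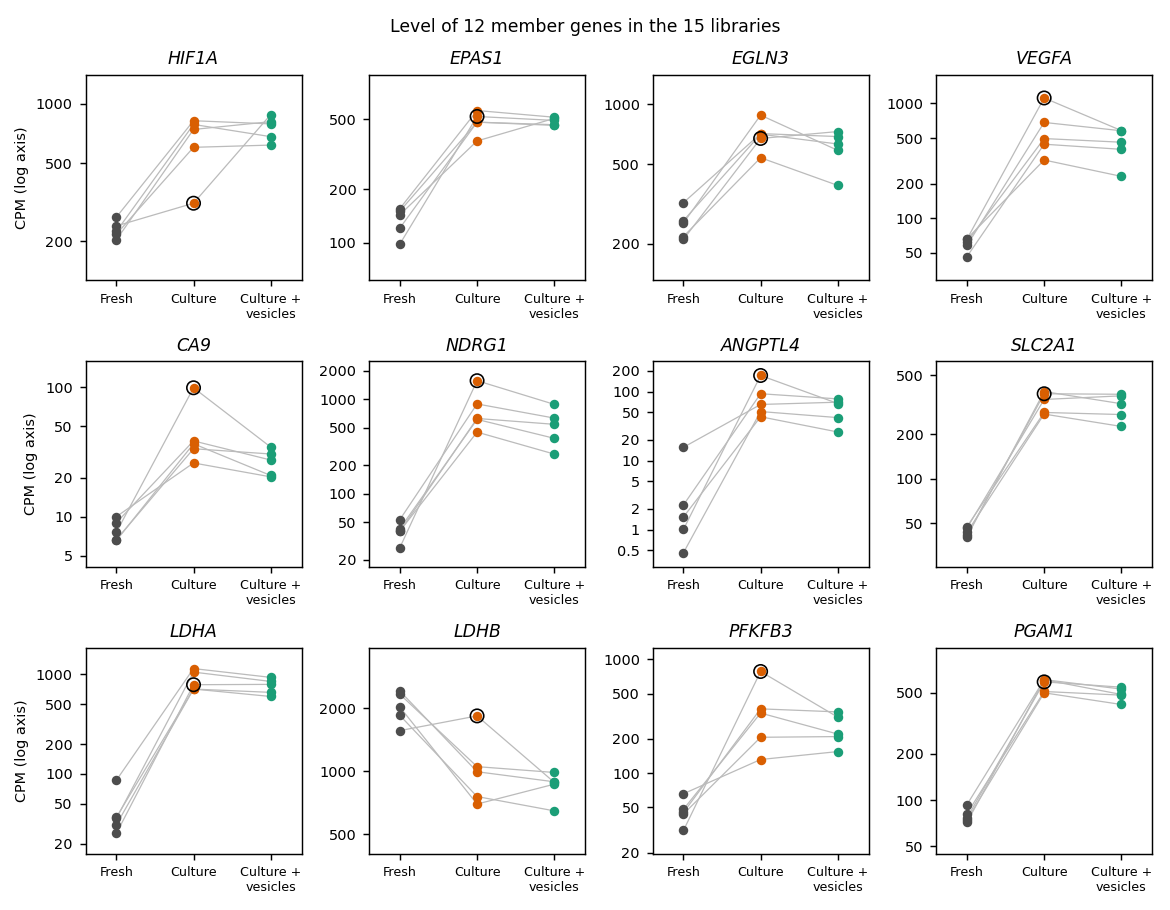
CPM on a log axis of 12 members in fresh tissue, culture and culture with vesicles; each point is 1 library, lines join libraries of the same number, and the ring marks culture 3. LDHA went from 25.3 to 86.5 CPM in fresh tissue to 713 to 1146 in culture, while LDHB was highest in fresh tissue apart from culture 3.

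Of the 18 glycolytic enzymes and regulators measured, 15 rose in culture, LDHB fell, and HK2 and ALDOC were not called; the median log2 fold change was 1.95. LDHA (NCBI gene 101100248), the lactate dehydrogenase subunit associated with lactate production, was at 30.9, 86.5, 25.3, 36.7 and 35.7 CPM in fresh tissue, at 713, 1146, 789, 714 and 1056 in culture, and at 661, 935, 795, 601 and 851 with vesicles. Fresh 2 was the highest fresh library and was still far below every cultured one. LDHA rose by 4.36 ± 0.33 (log2 fold change ± SE; edgeR adjusted p = 6.36e-08), or 20.5-fold, and by 4.41 without culture 3.

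LDHB (NCBI gene 101092373), the subunit associated with the use of lactate, was at 2325, 1843, 1561, 2408 and 2020 CPM in fresh tissue, at 1051, 757, 1834, 994 and 697 in culture, and at 986, 647, 885, 890 and 867 with vesicles. Culture 3 was the only cultured library inside the fresh range. LDHB fell by 0.93 ± 0.24 on the log2 scale (SE; edgeR adjusted p = 0.00366), and the log2 fold change was -1.21 without culture 3.

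PFKFB3 (NCBI gene 101100062), whose product makes the activator of phosphofructokinase, was at 43.8, 66, 31.4, 45.3 and 48.2 CPM in fresh tissue, at 207, 132, 784, 368 and 338 in culture, and at 210, 155, 311, 346 and 221 with vesicles. Culture 2 was the lowest cultured library and culture 3 the highest. The log2 fold change was 2.96 ± 0.41 (SE; edgeR adjusted p = 2.13e-05), and 2.48 without culture 3.

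All 6 measured enzymes of the ATP-yielding steps, from GAPDH to pyruvate kinase, rose. PGAM1 rose by 2.82 ± 0.13, PGK1 by 2.73 ± 0.19, ENO1 by 2.72 ± 0.17 and GAPDH by 2.33 ± 0.14 (log2 fold change ± SE), and none of these overlapped between fresh and culture. The neuronal-type enolase ENO2 rose by 2.50 ± 0.43 and pyruvate kinase PKM by 1.54 ± 0.26, or 1.13 without culture 3. In the upper, ATP-using steps, triosephosphate isomerase TPI1 rose by 2.36 ± 0.23 (2.04 without culture 3), the hexokinase HK1 rose by 2.47 ± 0.23, the aldolase ALDOA by 1.58 ± 0.15, glucose-6-phosphate isomerase GPI by 1.05 ± 0.14 and the muscle-type phosphofructokinase PFKM by 1.00 ± 0.20.

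The smallest called rises among the enzymes were those of the liver-type phosphofructokinase PFKL, at 0.90 ± 0.31 (SE; edgeR adjusted p = 0.0225), and of PFKFB4, at 0.51 ± 0.20 (adjusted p = 0.0381). In both, fresh and culture libraries overlapped. Culture 3 held 433 CPM of PFKL against 110 to 139 in the other cultures, and the log2 fold change without it was 0.35 (adjusted p = 0.0201). In a fit of only the fresh and culture libraries PFKL was not called (adjusted p = 0.0555). The PFKFB4 call was lost without fresh 1 (adjusted p = 0.0775), fresh 2 (0.0666), fresh 3 (0.094), fresh 5 (0.0684), culture 3 (0.0906) or culture 4 (0.0687). It was also lost under relative log expression scaling (0.0567), under upper-quartile scaling (0.0804) and with only the 2 groups fitted (0.0757).

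HK2, the insulin-responsive hexokinase, was at 60.3, 75.5, 70.2, 63.7 and 44.4 CPM in fresh tissue, at 57.1, 65.6, 163, 51 and 76.5 in culture, and at 59.9, 50.3, 92.3, 37 and 64.9 with vesicles. Culture 3 lay above all other libraries, and the remaining cultures lay at 51 to 76.5, close to the fresh range. Its log2 fold change was 0.39 ± 0.30 (SE; edgeR adjusted p = 0.285), and 0.0016 without culture 3 (adjusted p = 0.996). ALDOC, the brain-type aldolase, was at 36.3, 55.1, 65.2, 37.5 and 38 CPM in fresh tissue, at 41.4, 45.2, 54.6, 34.8 and 39.4 in culture, and at 31.5, 31.9, 39.8, 26.7 and 31.6 with vesicles. Its fresh and culture ranges overlapped, with a log2 fold change of -0.11 ± 0.18 (edgeR adjusted p = 0.635), and -0.20 without culture 3. Several of these enzymes, among them GAPDH, PGK1, PGAM1, LDHA, TPI1, ENO1, ALDOA and PKM, have near-identical gene copies in mammalian genomes, and no source used here says how reads matching several copies were counted, so their absolute levels are uncertain.

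Related genes were also compared within each library, as the log2 ratio of their CPM, which does not depend on the scaling of the library. The level of a ratio also reflects transcript length, so only its change between groups is read. Over 10 ratios and 3 comparisons there were 30 exact tests, adjusted together by Benjamini-Hochberg. Those against fresh tissue were permutation tests, and those between both cultures were sign-flip tests over pairs. The ratio of LDHA to LDHB was -5.69 ± 0.73 in fresh tissue, -0.21 ± 0.79 in culture and -0.16 ± 0.46 with vesicles (mean log2 ratio ± SD, n = 5). Culture exceeded fresh tissue by 5.47 (exact two-sided permutation p = 0.00794, the smallest that 5 against 5 allows; adjusted p = 0.0183), with no overlap between the groups.

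The ratio of HK2 to HK1 moved the other way, from 1.32 ± 0.54 in fresh tissue to -0.82 ± 0.20 in culture (SD, n = 5), a difference of -2.14. The ratios of BNIP3 to BNIP3L, PFKFB3 to PFKFB4, ALDOA to ALDOC and EGLN3 to EGLN1 were higher in culture by 3.25, 2.25, 1.64 and 0.88. Each of these 5 differences had the same exact permutation p of 0.00794 and adjusted p of 0.0183, and none of the groups overlapped. Without culture 3 the differences were 5.73 for LDHA over LDHB, -2.21 for HK2 over HK1, and 2.80, 2.06, 1.63 and 0.97 for the other four in the same order, with adjusted p = 0.017 in each exact permutation test. P4HA1 over P4HA2 was higher by 1.17 (exact permutation p = 0.0397; adjusted p = 0.085), and by 1.51 (adjusted p = 0.017) without culture 3, where that ratio was as low as in fresh tissue. The ratios of ENO1 to ENO2, SLC2A3 to SLC2A1 and HIF1A to EPAS1 differed by 0.19, 0.03 and -0.43, with adjusted p of 0.756, 0.993 and 0.392 in the same exact permutation tests.

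**Figure D3:**
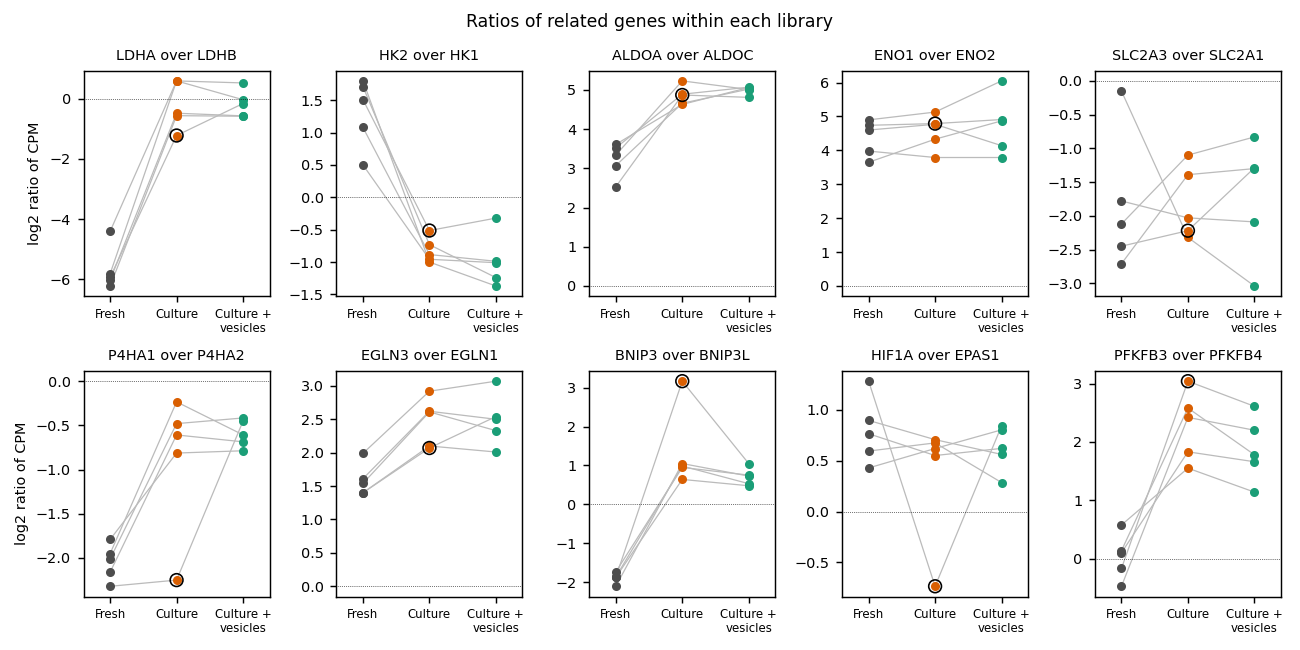
Log2 ratio of the CPM of 10 pairs of related members in each library, by group; lines join libraries of the same number, the ring marks culture 3, and the dotted line is a ratio of 1. LDHA over LDHB was -6.23 to -4.41 in fresh tissue and -1.22 to 0.599 in culture, whereas ENO1 over ENO2 overlapped between all groups.

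The comparison of culture with vesicles against fresh tissue uses the same 5 fresh libraries as the comparison above, so their agreement is not independent. With vesicles, 32 of the 39 members were called higher, 2 were called lower and 5 were not called (edgeR, all 15 libraries), with a median log2 fold change of 1.87 against 0.0139 over all genes tested. Of all genes tested, 27.4% were called higher and 25.5% were called lower. By role, 4 of 4 regulators, 11 of 14 targets, 3 of 3 transporters and 14 of 18 enzymes rose. LDHB and ALDOC fell. BNIP3L, ANKRD37, KDM3A, HK2 and PFKL were not called. In a fit of only the fresh libraries and those with vesicles, BNIP3L was called lower (log2 fold change -0.32, edgeR adjusted p = 0.00332). Its libraries with vesicles, at 139 to 172 CPM, all lay below the fresh ones, at 178 to 197. PFKL was called higher in that fit (0.28, edgeR adjusted p = 0.0471).

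The values of the leading members over fresh tissue are given side by side without a test between them. LDHA was at 4.16 ± 0.32 with vesicles and 4.36 ± 0.33 without, and SLC2A1 at 2.83 ± 0.16 and 2.92 ± 0.16 (log2 fold change ± SE). NDRG1 was at 3.73 ± 0.38 and 4.35 ± 0.40, VEGFA at 2.91 ± 0.32 and 3.35 ± 0.33, and CA9 at 1.75 ± 0.32 and 2.56 ± 0.33. EPAS1 was at 1.87 ± 0.15 and 1.85 ± 0.15, and HIF1A at 1.72 ± 0.22 and 1.51 ± 0.21. The value with vesicles was the lower one in LDHA, SLC2A1, NDRG1, VEGFA and CA9, and the higher one in EPAS1 and HIF1A. These distances include culture 3. Without it the culture values were 3.99 in NDRG1, 3.03 in VEGFA, 2.09 in CA9, 2.89 in SLC2A1 and 1.69 in HIF1A. Each of these lay nearer to the value with vesicles given above. LDHA, at 4.41, and EPAS1, at 1.84, did not come nearer.

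LDHB fell by 1.25 ± 0.24 on the log2 scale with vesicles (SE; edgeR adjusted p = 0.000419), with every library below every fresh one. ALDOC fell by 0.52 ± 0.18 (adjusted p = 0.0249), a call lost without fresh 2 (log2 fold change -0.45, adjusted p = 0.066), fresh 3 (-0.37, 0.0871) or the library with vesicles 4 (-0.48, 0.0596). EGLN1 rose by 0.36 ± 0.15 (adjusted p = 0.0483), and this call was lost under DESeq2 (0.092), limma-voom (0.0591), relative log expression scaling (0.101), upper-quartile scaling (0.152), a filter of 1 CPM in 5 libraries (0.0721) and on leaving out any 1 library except the one with vesicles 4 (0.0635 to 0.157). PFKFB4 rose by 0.53 ± 0.20 (adjusted p = 0.0338), a call lost under DESeq2 (0.0538), relative log expression scaling (0.0632), upper-quartile scaling (0.0775) and without fresh 1, 2, 3 or 5 or the libraries with vesicles 1, 2, 4 or 5 (edgeR adjusted p from 0.0606 to 0.089). KDM3A, at 0.35 ± 0.16 (adjusted p = 0.0691), was called with the replicate number as a block (0.33, edgeR adjusted p = 0.0345) and without the library with vesicles 2 (0.45, adjusted p = 0.0133). ANGPTL4 was at 3.79 ± 0.78, and at 5.41 without fresh 4. SLC2A3 was at 2.78 ± 0.56, and at 3.57 without fresh 4.

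Set against plain culture, explants with vesicles had slightly lower values of most of these genes, and none of the differences passed the test. Same-numbered libraries were compared as pairs, with the replicate number as a block. By edgeR, 0 of the 39 members and 0.0% of the 16845 genes tested were called at an adjusted p under 0.05, and the smallest adjusted p of a member was 0.938. DESeq2 and limma-voom called 0 members as well, with smallest adjusted p of 0.596 and 0.913. At an unadjusted p under 0.05 there were 266 genes by edgeR, 309 by DESeq2 and 353 by limma-voom. Each is a smaller share of the 16845 genes than the 0.05 that this threshold would give if no gene differed. Without pair 3, which holds culture 3, edgeR had 858 of 16972 genes at that p. Of the members, 12 had an unadjusted edgeR p under 0.05, all of them lower with vesicles, a class that held 1.1% of all genes tested.

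The log2 fold change was below 0 in 33 of 39 members, with a median of -0.28 against 0.0099 over all genes. In 15 members all 5 libraries with vesicles lay below their partner, which held for 2.67% of all genes tested, and no member lay above its partner in all 5. Those 15 were the hydroxylase EGLN1, the targets VEGFA, CA9, BNIP3, NDRG1, ANKRD37 and DDIT4, the transporter SLC16A3, and the enzymes GPI, ALDOC, TPI1, PGK1, PGAM1, ENO1 and PKM. By role the median log2 fold change was -0.11 in regulators, -0.42 in targets, -0.11 in transporters and -0.31 in enzymes, and 17 of 18 enzymes and 11 of 14 targets were below 0. These role medians include pair 3, which holds culture 3, and their order depends on it. Without pair 3 the transporters SLC2A1, SLC2A3 and SLC16A3 were at -0.14, -0.24 and -0.36.

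Some cell type markers lay to 1 side as well, with none called. Of the smooth muscle markers 0 of 6 were above 0 (median -0.34; summed level 1160 to 4350 CPM in culture and 598 to 4170 with vesicles). Of the principal cell markers 5 of 6 were above 0 (median 0.23; 1240 to 4030 and 2430 to 4200 CPM), and of the clear cell markers 5 of 5 (median 0.37; 11.9 to 65.3 and 17.5 to 64.3 CPM). Without pair 3 the counts above 0 were 0 of 6 (median -0.25), 2 of 6 (-0.04) and 4 of 5 (0.06). Fibroblast markers had 2 of 6 above 0 (median -0.20) with pair 3 and 1 of 6 (-0.33) without it. In the same order, macrophage markers had 2 of 6 (-0.26) and 1 of 6 (-0.26), and endothelial markers 3 of 6 (0.01) and 5 of 6 (0.06). Dividing cell markers had 5 of 6 (0.16) and 4 of 6 (0.02), basal cell markers 1 of 4 (-0.13) and 4 of 4 (0.06), and neutrophil markers 2 of 4 (0.15) and 3 of 4 (0.15). The part of these markers in the lower values of the members was not tested.

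The 4 members with the smallest unadjusted p were NDRG1, BNIP3, ALDOC and CA9. NDRG1 had differences (vesicles minus culture) of -0.21, -0.66, -0.83, -0.77 and -0.50 log2 units in pairs 1 to 5, and its fitted log2 fold change was -0.60 ± 0.14 (SE; edgeR unadjusted p = 0.00333, adjusted p = 0.938). BNIP3 was at 53.5, 53.8, 49.6, 52.9 and 45.3 CPM in fresh tissue, at 306, 343, 501, 252 and 383 in culture, and at 251, 204, 358, 194 and 262 with vesicles, all 5 below their partner although the ranges of both cultures overlapped. Its fitted value was -0.50 ± 0.12 (unadjusted p = 0.00405, edgeR adjusted p = 0.938).

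ALDOC was the most even of these: its pair differences were -0.39, -0.50, -0.45, -0.38 and -0.32 log2 units, and its fitted value was -0.42 ± 0.11 (SE; unadjusted p = 0.00668, edgeR adjusted p = 0.938). CA9 was the most uneven, with differences of -0.13, -0.81, -1.52, -0.36 and -0.49 and a fitted value of -0.67 ± 0.21 (unadjusted p = 0.0153, edgeR adjusted p = 0.938). HIF1A and EPAS1 had fitted values of 0.26 ± 0.26 and 0.01 ± 0.13, SLC2A1 of -0.11 ± 0.12, VEGFA of -0.39 ± 0.16, LDHA of -0.20 ± 0.12 and LDHB of -0.25 ± 0.21. Without pair 3 they were -0.03 for HIF1A, 0.04 for EPAS1, -0.14 for SLC2A1, -0.25 for VEGFA, -0.25 for LDHA, -0.05 for LDHB and -0.46 for CA9. HIF1A differed by 1.5 log2 units in pair 3 and by -0.21 to 0.13 in the other pairs.

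**Figure D4:**
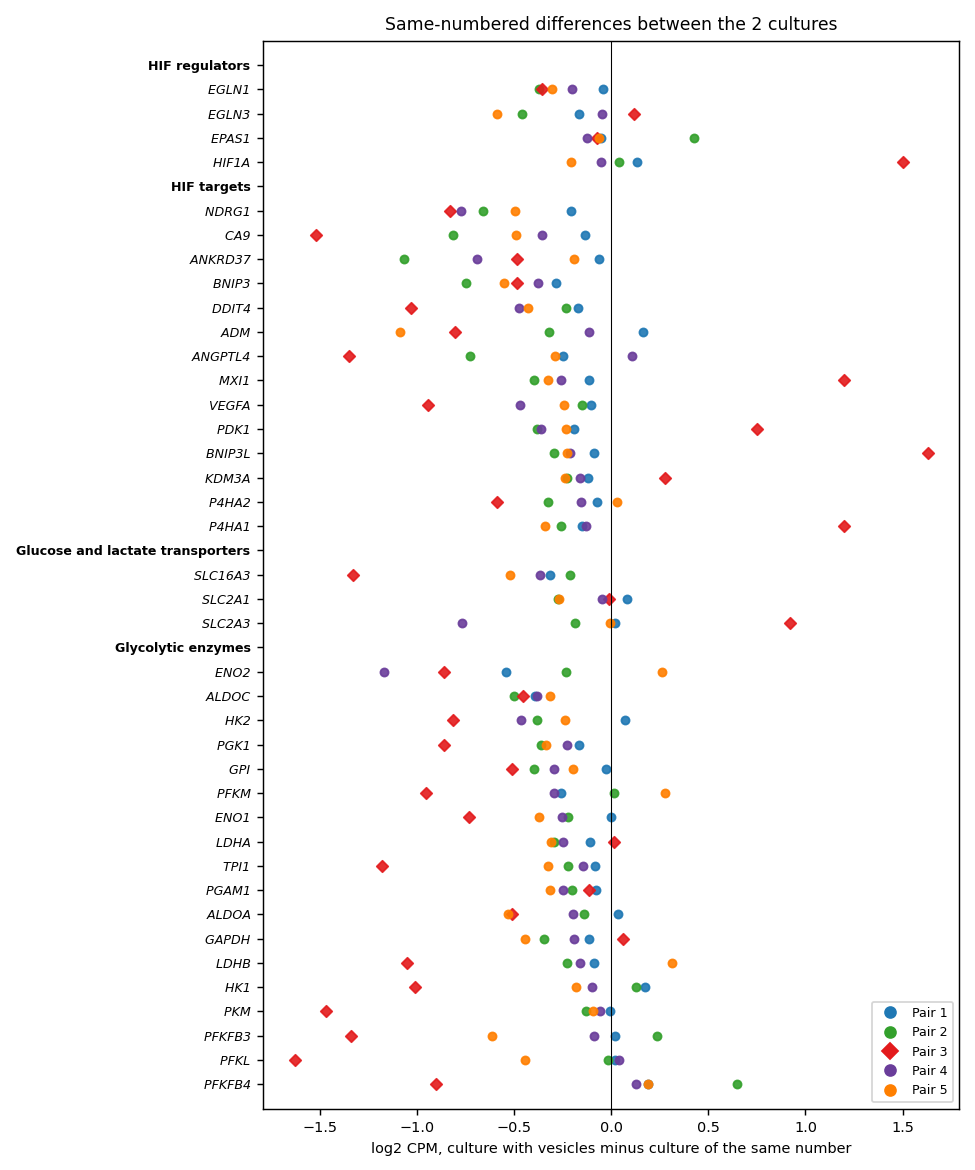
Difference in log2 CPM between each library with vesicles and the culture of the same number (horizontal axis) for the 39 members, ordered by role; each colour is 1 pair, and diamonds mark pair 3, which contains culture 3. Most points of pairs 1, 2, 4 and 5 lie to the left of 0 and close to it, while pair 3 reaches 1.63 in BNIP3L and -1.63 in PFKL.

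Pair 3, which holds culture 3, had the widest differences in both directions. BNIP3L was 1.63 log2 units higher with vesicles in that pair, P4HA1 and MXI1 each 1.20 and PDK1 0.75, whereas PFKL was 1.63 lower and PKM 1.47 lower. In the other 4 pairs BNIP3L, P4HA1, MXI1 and PDK1 were all lower with vesicles. Without pair 3, 37 of 39 members were below 0, with a median of -0.24, and 23 were lower in 4 of 4 pairs, a class that held 6.88% of all genes tested.

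In the fit without pair 3, 24 members had an unadjusted edgeR p under 0.05, of which 23 were lower, against 2.92% of all genes lower at that p. PFKFB4 was the 1 that was higher. edgeR called 0 genes in that fit (smallest member adjusted p = 0.935) and limma-voom called 0 members (0.832). DESeq2 called 7 genes lower, which is 0.0412% of those tested, and 7 higher. Members among the 7 lower were NDRG1 at -0.54 ± 0.11 (SE; DESeq2 adjusted p = 0.00169), BNIP3 at -0.50 ± 0.10 (0.00169) and ALDOC at -0.41 ± 0.10 (0.0354). This DESeq2 fit was chosen after seeing the data, and its calls were not shared by the other tools. Without the pairing, edgeR found 3 members at an unadjusted p under 0.05 in all 10 cultured libraries, culture 3 included, and 0 calls. With culture 3 left out of that unpaired fit, also chosen after seeing the data, 1 member was at such a p and no member was called. The median log2 fold change of the members was then -0.174.

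The isozyme ratios likewise gave no call between both cultures, in an exact sign-flip test over 5 pairs that cannot go below p = 0.0625. BNIP3 over BNIP3L and PFKFB3 over PFKFB4 were lower with vesicles in 5 of 5 pairs, by 0.65 and 0.41 log2 units on average (exact sign-flip p = 0.0625 each, adjusted p = 0.117). Without pair 3 these differences were -0.28 and -0.40. LDHA over LDHB differed by 0.05 (exact p = 1, adjusted p = 1), and by -0.20 without pair 3.

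Other genes of the same pathways, listed beside the members, did not all follow them. Over all genes tested in culture against fresh tissue, 28.7% were called higher and 25.6% lower. Of 24 other hypoxia-responsive genes tested, 19 rose in culture and none fell, with a median log2 fold change of 1.84; the largest rises were those of the stanniocalcin hormone genes STC1, at 5.55 ± 0.50, and STC2, at 5.09 ± 0.40 (SE). Between both cultures the same list had a median of -0.0048, with 11 of 24 above 0; without pair 3 the median was -0.12, with 6 of 24 above 0. Its member FAM162A, picked after its values were seen, was at -0.47 with vesicles (edgeR unadjusted p = 0.00773), and was not called. Of 15 other HIF pathway regulators, 1 rose and 5 fell in culture (median 0.01): the HIF partner gene ARNT2 rose by 1.22 ± 0.39, while HIF3A, which encodes an inhibitory HIF subunit in some isoforms, fell by 2.56 ± 0.42 and the HIF antagonist CITED2 fell by 0.80 ± 0.20.

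Other glycolytic isozymes and regulators were split, with 3 of 9 tested higher and 3 lower (median -0.16), against 28.7% and 25.6% of all genes. The hexokinase-like HKDC1 rose by 2.20 ± 0.56 and BPGM, which makes 2,3-bisphosphoglycerate, by 1.27 ± 0.32. The muscle enolase ENO3 fell by 1.49 ± 0.18 (log2 scale, SE). Of the 3 sperm isozymes tested, GAPDHS fell by 3.85 ± 1.01 and PGK2 by 2.70 ± 0.73, in libraries where the sperm markers also fell; the summed level of the sperm isozymes was only 1.84 to 9.17 CPM in fresh tissue. Of 9 other sugar, lactate and pyruvate transporters, 2 rose and 4 fell (median -0.67): the monocarboxylate transporter SLC16A7 rose by 3.30 ± 0.35 and the MCT chaperone BSG by 0.50 ± 0.18, and the glucose transporters SLC2A10 and SLC2A4 fell by 1.56 ± 0.22 and 1.38 ± 0.48.

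The lists of the pyruvate dehydrogenase complex, citric acid cycle, gluconeogenesis and glycogen metabolism had smaller median changes than the member roles, though single genes moved more. The shares over all genes tested, to be set beside the counts below, were 28.7% called higher and 25.6% called lower. Of 10 genes of the pyruvate dehydrogenase complex and its kinases, 1 rose and 2 fell (median -0.12): the E1 alpha subunit PDHA1 rose by 0.96 ± 0.11, while the E1 beta subunit PDHB fell by 0.86 ± 0.12 and the phosphatase PDP1 by 0.62 ± 0.15. Of 16 citric acid cycle genes, 5 rose and 3 fell (median 0.13), led by DLST at 1.03 ± 0.11 and IDH3A at 0.58 ± 0.10, and by IDH3G at -0.64 ± 0.15 and SDHC at -0.49 ± 0.14. Of 5 gluconeogenic genes tested, PCK2 rose by 1.49 ± 0.26 and 3 fell, among them G6PC3 by 1.25 ± 0.31 and FBP1 by 1.08 ± 0.38 (median -0.37). Of 11 glycogen genes, 6 rose and 2 fell (median 0.88), with PPP1R3B, a targeting subunit of protein phosphatase, at 1.32 ± 0.21, the liver phosphorylase PYGL at 1.28 ± 0.19 and the branching enzyme GBE1 at -0.61 ± 0.24.

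Without culture 3, these lists gave 21 higher and 0 lower of the other hypoxia-responsive genes, 4 and 5 of the other HIF pathway regulators (median -0.11), 3 and 3 of the other glycolytic isozymes and 0 and 2 of the sperm isozymes. The other transporters had 2 higher and 4 lower, the pyruvate dehydrogenase genes 3 and 2 (median 0.006), the citric acid cycle genes 8 and 4, the gluconeogenic genes 1 and 3 and the glycogen genes 6 and 1. Of the genes named from these lists, the calls of BSG (0.34, edgeR adjusted p = 0.0548) and GBE1 (-0.44, adjusted p = 0.0816) were lost without culture 3.

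**Figure D5:**
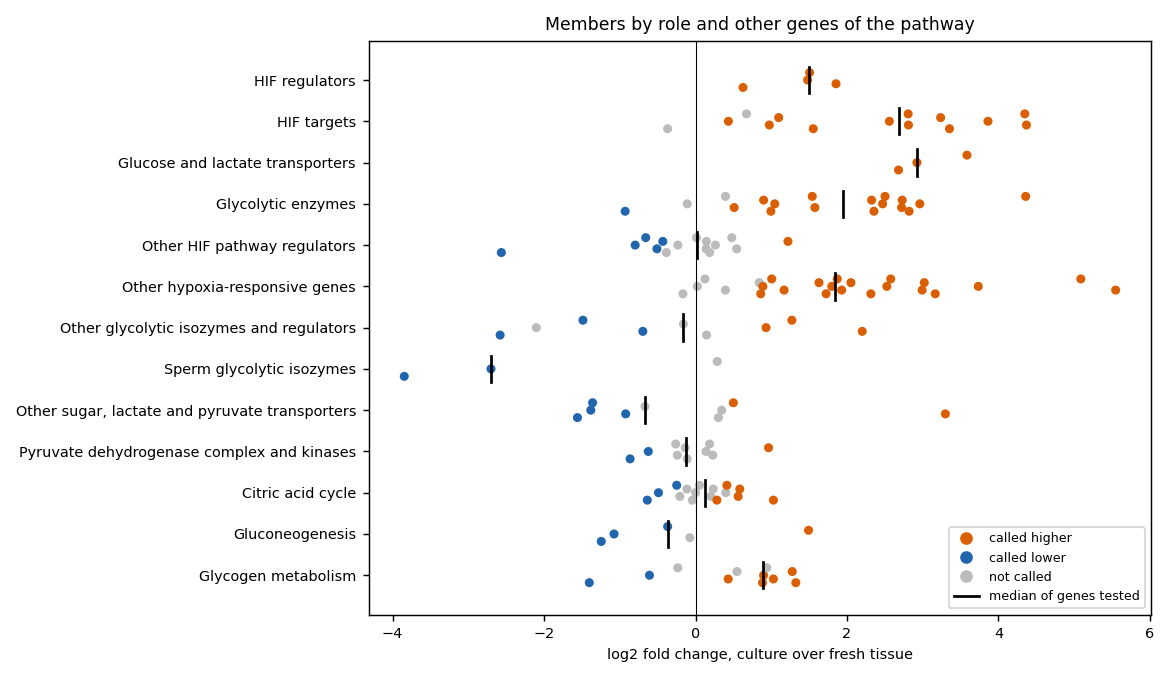
Log2 fold change in culture over fresh tissue (horizontal axis) of the members by role, at the top, and of the other pathway lists; each point is 1 gene, coloured by whether it was called, and the bar is the median of the genes tested. The medians of the member roles run from 1.49 to 2.92, and those of the other lists from -2.7 to 1.84.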

How the data were processed

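The authors deposited raw counts per gene for 15 libraries, 5 in each group, keyed by NCBI gene identifiers. Per the labels' protocols, a Qiagen kit served for RNA extraction and a TruSeq stranded mRNA kit for the libraries. Tools named in the submitters' processing notes are StringTie 2.1.3b, Bowtie2 2.3.4.1, HISAT2 2.1.0 and Trimmomatic 0.38, with no role given. The genome build, counting program, strand setting and treatment of reads matching several genes are not stated in any source used here, so overlapping or antisense genes may not have been told apart. All 38995 identifiers matched RefSeq symbols of assembly F.catus_Fca126_mat1.0, used for names only; no coordinates or sequences are given.

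Low genes were removed with filterByExpr (minimum count 10, minimum total 15), leaving 18038 genes over 15 libraries and 16845 over the 10 cultured ones. Counts were scaled by TMM and tested with edgeR 4.0.16 in R 4.3.3 (quasi-likelihood, two-sided, Benjamini-Hochberg over all genes, threshold 0.05), by group in 15 libraries (12 residual degrees of freedom) against fresh tissue, and with the replicate number as a block in the cultured libraries (4 residual degrees of freedom). CPM are per TMM-scaled library; log2 CPM used a prior count of 2. Ratios were tested by exact permutation against fresh tissue and by exact sign flips over pairs between both cultures. Those with PFKP could not be made. Alternatives were DESeq2 1.42.0, limma-voom 3.58.1, other scalings, filters, blocks and leaving out libraries. The scripts were tested on simulated counts.

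Same-numbered libraries deviated together. Correlations of their deviations from the group means were 0.181 to 0.602 between both cultures. They were 0.242 to 0.362 between fresh tissue and culture with vesicles. Between fresh tissue and culture they were 0.0326 in pair 3, which holds culture 3, and 0.198 to 0.344 in the other pairs. In 4 of 5 culture libraries the best match in fresh tissue had the same number, against 5 of 5 in each of the other comparisons. The block was in the model for both cultures and an alternative for the comparisons with fresh tissue. The labels do not say what a number shares.

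Members and lists were chosen with earlier results of these data known. Named were HIF1A, EPAS1, SLC2A1, VEGFA, CA9, LDHA and LDHB, the 2 largest rises and 1 fall of each role in culture, members not called there, the 4 members with the smallest p between both cultures, and the 2 largest rises and falls of each other list, of which some are not reported here; further members are given by their fold changes.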

Additional observations from a re-analysis of the deposited data

Results flagged for a closer look

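In groups of 5 libraries, 1 library was set apart from the other 4 when its gap to the nearest exceeded 0.71 of the group's range (Dixon's test). This was so in 9 of 147 groups tested, against 7.3 given by a chance of 1 in 20, and 7 of the 9 were culture 3. In culture 3, BNIP3L was at 55.6 CPM (159 to 185 in the other cultures), PFKL at 433 (110 to 139), TPI1 at 1566 (632 to 782) and PKM at 1798 (579 to 789). Its log2 ratio of P4HA1 to P4HA2 was -2.25 (-0.813 to -0.234 in the others), that of BNIP3 to BNIP3L 3.17 (0.641 to 1.05) and that of HIF1A to EPAS1 -0.734 (0.55 to 0.706). Culture 3 is also the library with 0.1794% mitochondrial counts, and the part of this in these values was not tested.

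Fresh 2 stood above the other fresh libraries in the log2 ratio of LDHA to LDHB, at -4.41 against -6.23 to -5.82. Culture with vesicles 3 stood below its group in the log2 ratio of ALDOA to ALDOC, at 4.81 against 5.01 to 5.07.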

How the results depend on the processing

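Against fresh tissue, 725 of 741 member values in culture and 667 of 702 with vesicles kept their direction and side of the threshold under the alternatives. Members called lower with vesicles, and enzymes among them, were 1 to 2 on leaving out 1 library; HIF targets called lower were 1 (BNIP3L) with only the 2 groups fitted. Between both cultures, DESeq2 without pair 3 called 3 members lower (2 HIF targets, 1 enzyme), and 7 genes higher and 7 lower overall. Directions turned only in values that were not called. On leaving out 1 library, log2 fold changes ranged from -0.20 to 0.046 for ALDOC in culture and from -0.26 to 0.074 for HK2 with vesicles over fresh tissue. Leaving out 1 pair gave -0.085 to 0.051 for EPAS1 and -0.031 to 0.39 for HIF1A between both cultures. HIF1A was -0.0309 under DESeq2 and -0.0323 under limma-voom without pair 3. Log2 ratio differences ranged, for SLC2A3 over SLC2A1, from -0.18 to 0.46 in culture and -0.085 to 0.56 with vesicles over fresh tissue, and between both cultures from -0.11 to 0.31; there, LDHA over LDHB ranged from -0.20 to 0.22, P4HA1 over P4HA2 from -0.091 to 0.45, EGLN3 over EGLN1 from -0.084 to 0.10 and HIF1A over EPAS1 from -0.070 to 0.42. The cause was not tested.

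With the replicate block over same-numbered pairs, KDM3A with vesicles over fresh tissue was called (0.33, edgeR adjusted p = 0.0345), and the block changed no other member's call against fresh tissue. The 13 called ratios had adjusted p = 0.117 under the exact sign-flip test over pairs, whose smallest p is 0.0625. Upper-quartile scaling moved the median of all genes with vesicles over fresh tissue from 0.0139 to -0.0914 and that of the members from 1.87 to 1.76. The lowest member level was that of ANGPTL4, at 0.464 CPM in fresh 5. The 2 planned ratios with PFKP were not run.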
